A study of Mus musculus with 8 samples.

Results

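Chromosome 16 interval probes are array probes that the design names after a stretch of mouse chromosome 16, with the suffix F or R for strand, instead of after a gene. They stand for candidate long noncoding RNAs. The members are all non-control probes whose name has this form: 579 of the 55681 non-control probes, from 120 intervals of the build mm9. Of these, 45 probes from 12 intervals lie in the part that Ts1Cje mice carry in an extra copy and are called triplicated, and 534 probes from 108 intervals lie before it and are called proximal. The boundary falls in a gap with no interval, between positions 90127636 and 91174611. The members were chosen by name and position and not by a measured value, though earlier results of these data were known. The triplicated intervals end at position 98230170. The files do not say which suffix is the plus strand of the genome, so F and R are used as names only.

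RNA came from the hippocampus of 3-month-old C57BL6/J mice, 4 Ts1Cje and 4 wild-type, on 1 array each. The series describes them as pairs of littermates, with the wild-type controls disomic. Ts1Cje is a Down syndrome model that carries an extra copy of distal chromosome 16 from Sod1 to Zbtb21, so that these genes have 3 copies against 2 in wild type. One copy of Sod1 is disrupted, and the translocation that holds the extra copy has removed the end of a chromosome 12. Neither the sex of the mice nor which arrays hold littermates is stated. In whole tissue, fewer cells that make a transcript and less of it per cell cannot be told apart.

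Long noncoding RNAs are transcripts with no long open reading frame. Many are made at low level, in few cell types, and from the strand opposite to a gene or from the DNA between genes, and some act on chromatin or on neighbouring genes. In brain tissue they are numerous and often mark single types of neuron or glia. In a trisomy their genes are present in the extra copy like the protein-coding genes around them, and how their levels follow the copy number can be read from the same arrays.

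Between 59.9% and 63.1% of the non-control probes passed the flag for signal well above background, depending on the array. All 9 fixed markers of hippocampal neurons, all 7 of glia and both of endothelium were above background on all 8 arrays. So were 4 of 5 markers of other regions or tissues, and the fifth, the striatal receptor gene Drd2, was above background on 7. A probe was tested when 1 genotype or both had it well above background on all 4 arrays, which left 27702 features. Levels are log2 signals after subtracting each array's 75th percentile, so most of those below are negative. Differences are Ts1Cje minus wild type. All arrays were on 1 slide, with every wild-type array in column 1 or 3 and every Ts1Cje array in column 2 or 4, and slide column and genotype cannot be told apart. Their number limits the precision of every value, and p-values measure the spread between these samples, taken as separate mice.

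The first question was which of these intervals gave a signal in hippocampus. Of the 45 triplicated probes, 17 were tested (37.8%), 24 were above background on at least 1 array and 21 on none. Of the 534 proximal probes, 235 were tested (44.0%), and of 15602 interval probes on other chromosomes, 6107 (39.1%). By interval, 10 of the 12 triplicated and 78 of the 108 proximal ones had a tested probe. Both triplicated intervals without one were of the F suffix, chr16:92180800-92196850 with 1 probe and chr16:94775095-94775634 with 3. On proximal chromosome 16 the detected intervals had a median length of 6390 bases and those not detected 4398. Among other chromosomes these lengths were 10576 and 2347 bases.

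The triplicated intervals were detected mainly with R probes. Of 21 R probes 13 were tested, against 4 of 24 F probes. On proximal chromosome 16 the strands were closer, with 116 of 245 R probes and 119 of 289 F probes. On other chromosomes 40.5% of R and 37.8% of F probes were tested. The probes of an interval are named after the same stretch and are not separate loci. The triplicated count rests on few intervals: 4 were probed only with R, 6 only with F and 2 with both. In those last 2, chr16:91174611-91200786 and chr16:93121505-93142255, 1 of 5 and 4 of 5 R probes were tested, and none of the 5 F probes of each. The F interval chr16:91198576-91199149, which lies within the former, had 1 of its 3 probes tested. By interval, every triplicated one probed with R, alone or on both strands, had a tested R probe. Both triplicated intervals without a tested probe were probed only with F, and every other one probed only with F had a tested probe. On proximal chromosome 16, 34 intervals were probed on both strands, of which 16 were tested on both, 7 on F only, 6 on R only and 5 on neither. The difference between strands was not tested.

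**Figure D1:**
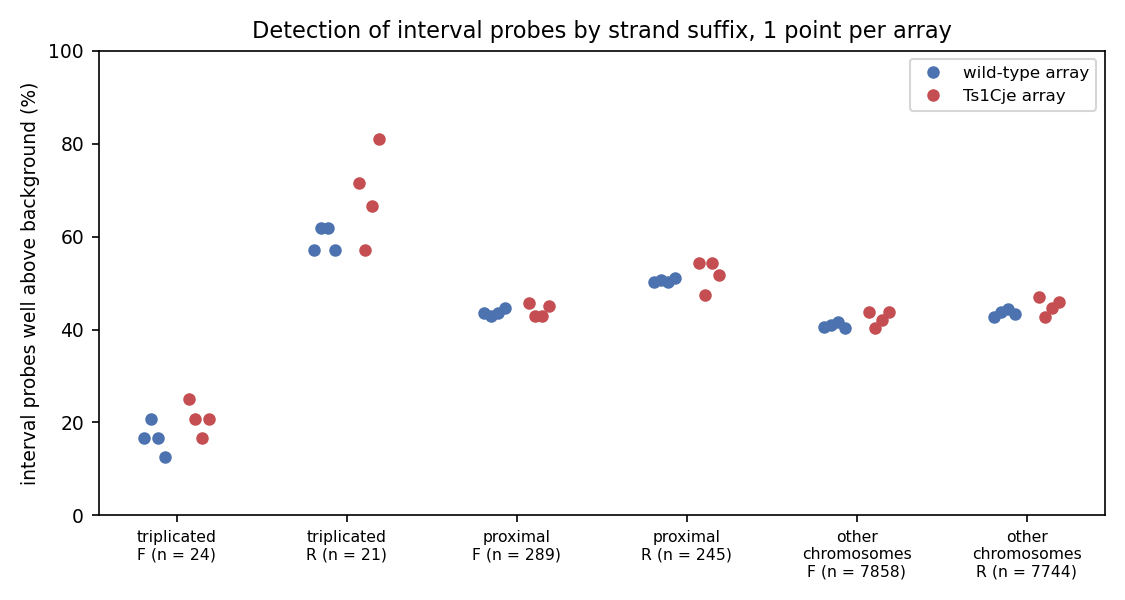
Percent of interval probes well above background on each array (y axis), by class and strand suffix, with 1 point per array and the number of probes under each column. Triplicated F probes lie between 12.5% and 25% and triplicated R probes between 57.1% and 81.0%, whereas the strands of the other classes lie between 40.3% and 54.3%.

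Detection counts of the genotypes overlapped. Wild-type arrays detected 15 to 18 of the 45 triplicated probes and Ts1Cje arrays 17 to 22. Ts1Cje replicates 1 and 4, with 21 and 22, also detected the most interval probes of other chromosomes, 45.4% and 44.8%, against 41.5% to 43.3% on the other 6 arrays. In all, 9 triplicated probes were above background on more Ts1Cje than wild-type arrays and 1 on fewer. Among proximal probes these counts were 46 and 33, and among other chromosomes 1646 and 968. The part of the arrays' overall detection in these counts was not tested.

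The second question was whether the triplicated intervals are higher in Ts1Cje, as genes with an extra copy can be. The 17 tested triplicated probes, from 10 intervals, stood close to wild type. Their median log2 fold change was 0.10, 14 of 17 were above 0, and none passed (limma with Benjamini-Hochberg adjustment across the 27702 features, threshold 0.05), where 0.144% of all features were called higher and 0.0108% lower. At an unadjusted p under 0.05 there were 4, all higher, beside 8.32% of all features in either direction and 4.27% higher. This count was 1 without Ts1Cje replicate 2 or wild-type replicate 3 or 4, 2 without wild-type replicate 1 or Ts1Cje replicate 4, and 3 or 4 without any of the others. Of the 4 in the main fit, A_30_P01019391 passed the filter only through Ts1Cje, which favours a higher value there. Its interval lies within that of A_30_P01024527, another of the 4. The 14 that were above background on all 8 arrays also had a median of 0.10. In a fit of such features alone, 3 of the 14 had an unadjusted p under 0.05 (limma), beside 8.21% of those features. The median of the triplicated probes was 0.03 with normexp background correction, 0.05 with quantile normalization, with the array median as centre or without Ts1Cje replicate 1, and 0.16 without Ts1Cje replicate 3, with all other settings between 0.08 and 0.15. The ratio of 3 copies to 2 is 0.58 on this scale.

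The 235 tested proximal probes, from 78 intervals with 2 copies in both genotypes, had a median of 0.07, which was 0.01 without wild-type replicate 3, 0.10 without Ts1Cje replicate 1, 0.03 with normexp and 0.02 with the array median as centre. Of these, 153 were above 0, none was called and 16 had an unadjusted p under 0.05, 10 higher and 6 lower, beside 4.27% and 4.04% of all features. The count of 16 was 59 without Ts1Cje replicate 1, where 11.3% of all features had such a p, and 10 without Ts1Cje replicate 2, where 6.19% did. The 6107 tested probes of intervals on other chromosomes had a median of 0.04 with 61.6% above 0, against 49.2% of all features, whose median was -0.002. The interval probes of chromosome 16, both classes together, had the highest median of the 20 chromosomes with intervals, 0.078. Chromosomes 12, 19, 18 and 2 were next and close together, at 0.066, 0.065, 0.064 and 0.062. Of the 252 tested probes of chromosome 16, 235 were proximal. The single interval probe called was on chromosome 6.

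Listed genes of the triplicated segment were read on the same arrays. Of 65 reference genes listed from Sod1 to Zbtb21, with or without a probe on the array, 57 were tested and 55 were above 0. In all, 22 were called higher and none lower, beside 0.144% and 0.0108% of all features. The median of the 57 was 0.49, and with an array left out it was 0.49 to 0.51 with 55 above 0 throughout. The count of 22 rests on all 8 arrays: no gene was called when Ts1Cje replicate 4 was left out, 1 when Ts1Cje replicate 2 or 3 or wild-type replicate 4 was, 2, 8 and 15 without wild-type replicates 1, 2 and 3, and 12 without Ts1Cje replicate 1. The count was also 10 with the array median as centre, 1 without the filter on dim probes and 0 with a replicate block. Genes of this list with a mean level below -2, the range of most triplicated probes, numbered 9. All 9 were above 0 with a median of 0.56, and the 7 of them above background on all 8 arrays had a median of 0.47. Of the 17 triplicated probes, 11 had a mean level below -2 with a median of 0.10, and the 6 at or above it had a median of 0.07. The genes and the intervals were not set against each other in a test.

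**Figure D2:**
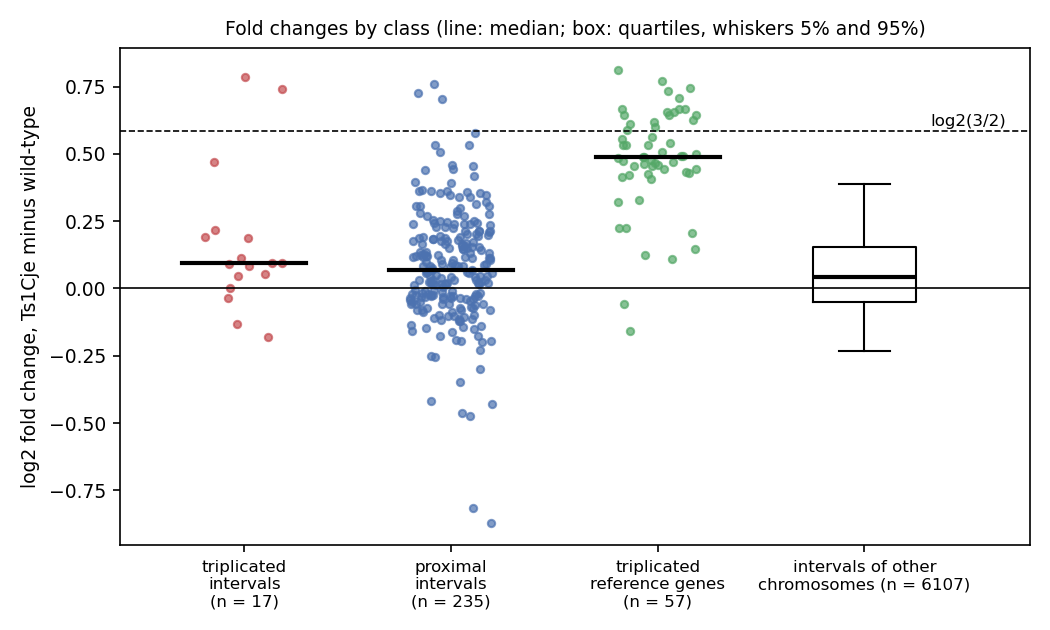
Log2 fold change of each tested probe or gene (y axis) for triplicated intervals, proximal intervals and triplicated reference genes, with the median as a line, and quartiles with 5% and 95% whiskers for intervals of other chromosomes. The medians are 0.10, 0.07, 0.49 and 0.04, and the dashed line marks the 3 to 2 copy ratio of 0.58.

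The spread between arrays was as large as the shift between genotypes. The median over the triplicated probes, relative to the wild-type mean of each probe, was 0.04, 0.13, -0.13 and 0.06 on wild-type replicates 1 to 4 and 0.08, 0.07, 0.01 and 0.09 on Ts1Cje replicates 1 to 4. All 4 Ts1Cje arrays lay within the range of the wild-type arrays. The same measure for the reference genes was -0.02 to 0.02 on wild-type and 0.48 to 0.53 on Ts1Cje arrays, with no overlap. Over the proximal probes it ran from -0.15 to 0.11 in wild type and from -0.08 to 0.12 in Ts1Cje. Wild-type replicate 3 was the lowest array for both interval classes and for the intervals of other chromosomes.

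The moderated 95% intervals show how far each probe could bear on an extra copy. Of the 17 triplicated probes, 11 had an interval that lay wholly below 0.58, and 10 of these held 0. Another 3 held both 0 and 0.58, and 3 lay above 0 and held 0.58. None lay above 0.58. Among the 57 reference genes, 13 lay wholly below it, 43 held it and 1 lay above. Of the 235 proximal probes, 169 lay wholly below it.

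**Figure D3:**
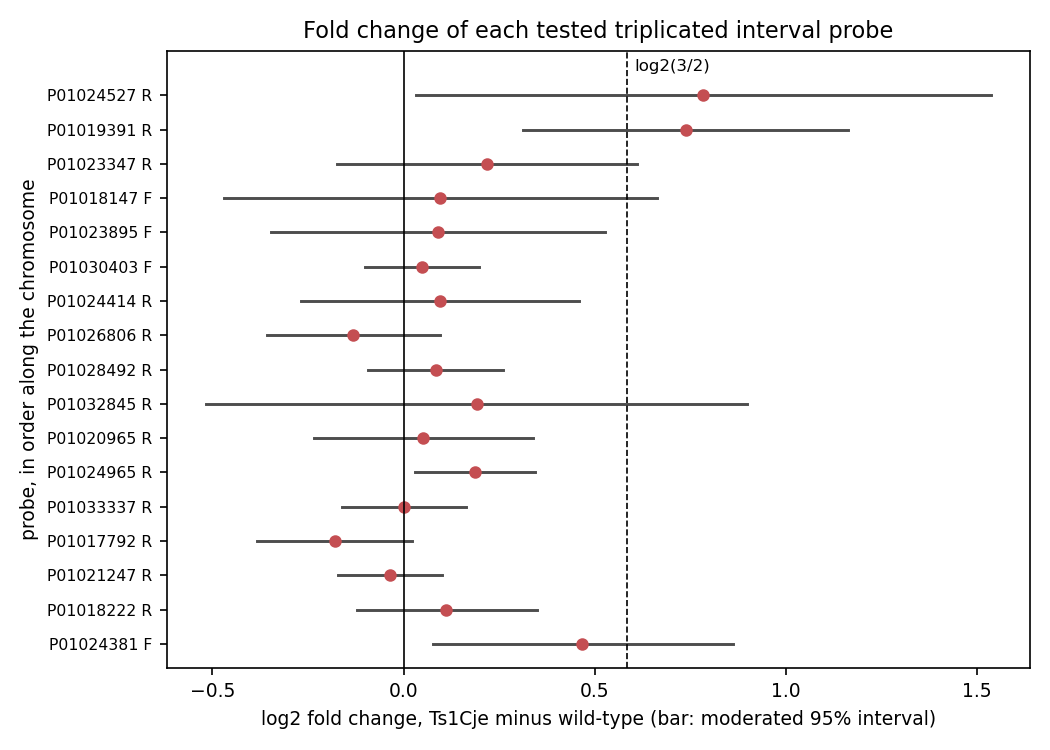
Log2 fold change with its moderated 95% interval (x axis) for the 17 tested probes of triplicated intervals, in order along the chromosome, labelled by probe number without its prefix and by strand suffix. In all, 11 bars end left of the dashed line at 0.58, and the 3 bars right of 0 that cross it belong to both probes at the top and the one at the bottom. The second from the top is set against a wild-type level below background.

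In order along the chromosome, the first interval inside the boundary is chr16:91174611-91200786, of 26176 bases, which contains the shorter intervals chr16:91187988-91188416 and chr16:91198576-91199149. Of its 5 R probes 1 was tested, A_30_P01024527. Its levels were -3.98, -3.78, -4.31 and -3.79 on wild-type replicates 1 to 4 and -4.24, -2.92, -2.82 and -2.74 on Ts1Cje replicates 1 to 4. The arrays of Ts1Cje replicates 2, 3 and 4 exceeded every wild-type array, and Ts1Cje replicate 1 lay below 3 of the 4, so that the groups overlapped. The difference was 0.78 (SE 0.33, limma adjusted p = 0.59), the largest among triplicated probes measured in both groups. Without Ts1Cje replicate 1 it was 1.14 (adjusted p = 0.055), and with normexp background correction 0.33.

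The other probes of that interval gave no steady signal. Both A_30_P01024673 and A_30_P01025188, also R, were above background on Ts1Cje replicate 4 alone, where they stood at -2.07 and -3.16, while the other 7 arrays lay between -7.37 and -6.41. The F probe A_30_P01029088 was above background on Ts1Cje replicate 2 alone, at -2.15, and the other 7 arrays lay between -7.48 and -7.16. These are single spots on single arrays and were not tested.

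Within the same stretch, chr16:91187988-91188416 has 2 R probes of an interval of 429 bases. A_30_P01019391 stood at -5.06, -4.55, -5.19 and -4.50 in wild type and at -4.22, -4.29, -3.78 and -4.07 in Ts1Cje. It was not well above background on any wild-type array and was above it on all 4 Ts1Cje arrays. The wild-type level is therefore not well measured. The groups did not overlap (limma adjusted p = 0.33), and the Ts1Cje mean was 1.64-fold above wild type with wild-type levels held at a floor. The floor of an array is the lowest level of any probe well above background, and each wild-type level below it was raised to it. This ratio is an estimate and not a lower limit, as the floor moved the wild-type mean only from -4.83 to -4.80. A_30_P01019391 passed the filter only through Ts1Cje. It was the 1 triplicated probe with groups that did not overlap, where 2.45% of all features had Ts1Cje higher without overlap. The other probe, A_30_P01023347, above background on all 8 arrays, gave 0.22 (SE 0.17) with overlapping groups, from -3.92 to -3.34 in wild type and from -3.67 to -3.21 in Ts1Cje. With normexp background correction the difference of A_30_P01019391 was 0.09.

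The F interval chr16:91198576-91199149 was tested on 1 of its 3 probes, A_30_P01018147. It gave 0.10 (SE 0.25), and Ts1Cje replicate 1, at -3.36, stood above the other 3 Ts1Cje arrays at -4.52 to -4.33. Without that array the difference was -0.17.

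A pair of F intervals followed with values near wild type. For chr16:92126532-92187581 the probe A_30_P01023895 gave 0.09 (SE 0.19), above background on 3 wild-type and 4 Ts1Cje arrays. For chr16:92478986-92497610 the probe A_30_P01030403 gave 0.05 (SE 0.07) with a 95% interval of -0.10 to 0.20. Its arrays lay between -2.61 and -2.38 in wild type and between -2.56 and -2.40 in Ts1Cje. The 3-copy ratio lay above that interval.

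At chr16:93121505-93142255, of 20751 bases, the R probe A_30_P01028492 stood above the 75th percentile on every array. Its levels were 1.81, 1.60, 1.93 and 1.86 on wild-type replicates 1 to 4 and 1.88, 1.95, 1.88 and 1.83 on Ts1Cje replicates 1 to 4. The groups overlapped over nearly their whole range. The difference was 0.08 (SE 0.08, limma adjusted p = 0.77) with a 95% interval of -0.09 to 0.26. Another 3 of its 5 R probes were tested, and gave 0.10 (SE 0.16), -0.13 (SE 0.10) and 0.19 (SE 0.31). The last of these, A_30_P01032845, had Ts1Cje replicate 1 at -2.52 and the other 3 Ts1Cje arrays at -3.93 to -3.82, and gave -0.15 without it.

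The interval chr16:94055900-94120575, of 64676 bases, was tested on 3 of its 5 R probes. A_30_P01024965 stood at -0.68, -0.48, -0.70 and -0.65 in wild type and at -0.40, -0.42, -0.56 and -0.39 in Ts1Cje. The difference was 0.19 (SE 0.07, limma adjusted p = 0.53), with a 95% interval of 0.03 to 0.34 that lay above 0 and below the 3-copy ratio, and Ts1Cje replicate 3 overlapped wild-type replicate 2. Its neighbours A_30_P01020965 and A_30_P01033337 gave 0.05 (SE 0.12) and 0.002 (SE 0.07), so that probes of 1 interval ranged over 0.19.

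Both tested R probes of chr16:94521875-94545750 stood below 0. A_30_P01021247 stood at -0.01, -0.03, -0.19 and 0.03 in wild type and at -0.12, -0.09, -0.04 and -0.09 in Ts1Cje, so that the groups overlapped. It gave -0.04 (SE 0.06) with a 95% interval of -0.17 to 0.10. A_30_P01017792 gave -0.18 (SE 0.09, limma adjusted p = 0.63) and was above background on 3 of 4 Ts1Cje arrays.

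The longest triplicated interval, chr16:95978147-96138364, of 160218 bases, has 1 probe. A_30_P01018222 stood at -1.58, -1.33, -1.71 and -1.35 in wild type and at -1.39, -1.36, -1.53 and -1.24 in Ts1Cje. The groups overlapped, and the difference was 0.11 (SE 0.10, limma adjusted p = 0.77).

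The last interval, chr16:98218292-98230170, was tested on the F probe A_30_P01024381. It stood at -3.23, -3.51, -3.85 and -3.98 on wild-type replicates 1 to 4 and at -3.29, -2.94, -3.12 and -3.34 on Ts1Cje replicates 1 to 4. Wild-type replicates 2, 3 and 4 lay below every Ts1Cje array, and wild-type replicate 1 lay among them. The difference was 0.47 (SE 0.17, limma adjusted p = 0.53) with a 95% interval of 0.08 to 0.86, which held the 3-copy ratio. The remaining F probe of the interval was not above background on any array.

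**Figure D4:**
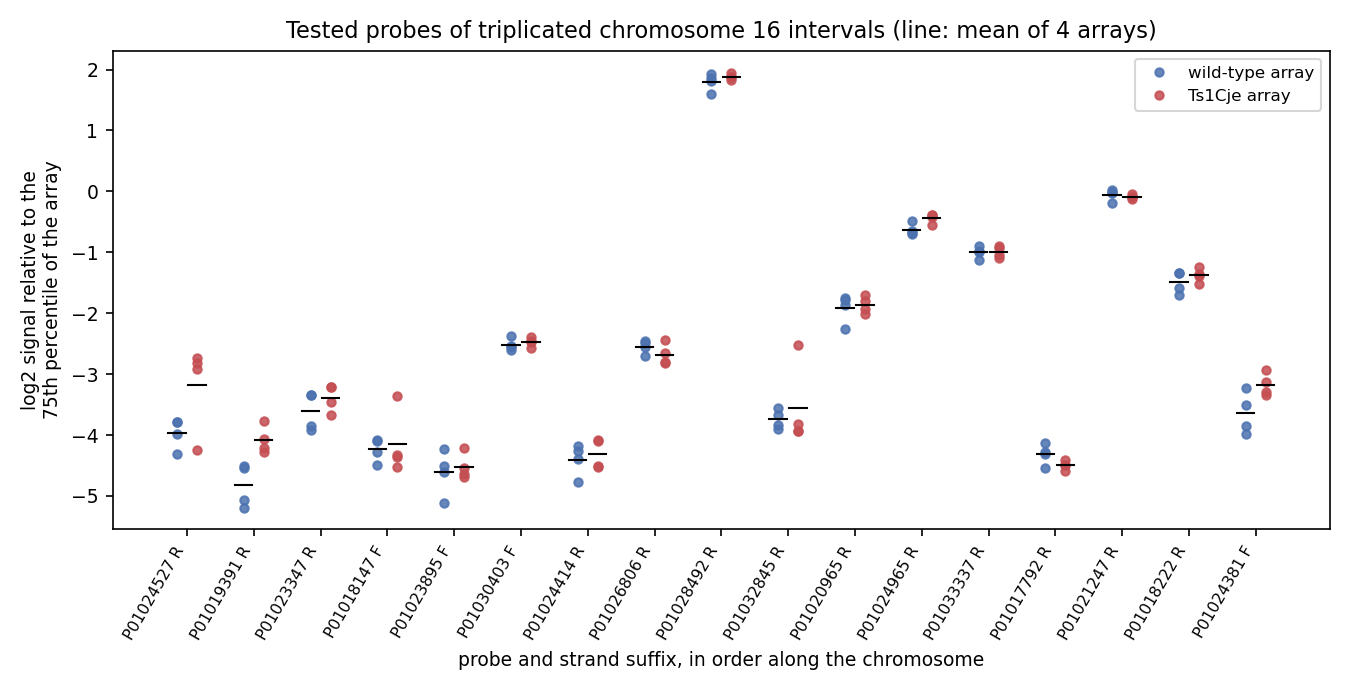
Log2 signal minus the array's 75th percentile (y axis) of the 17 tested probes of triplicated intervals, in order along the chromosome, with 1 point per array and a line at each mean of 4. The first probe at the left and the last at the right have gaps between means of 0.78 and 0.47, with overlapping arrays. The second is not above background on any wild-type array and is the only one whose genotypes do not overlap. In the other 14 the arrays of the genotypes overlap with gaps between -0.18 and 0.22.

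The 28 triplicated probes that were not tested add little. Of these, 21 were above background on no array and 7 on 1 to 4 arrays. The Ts1Cje mean was above the wild-type mean for 16 of the 28, with a median difference of 0.05, at levels where both groups are mostly below background.

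Beside the boundary, the last detected intervals before it were chr16:90116006-90119297 and chr16:90103524-90104408, both R. They gave 0.19 (SE 0.17) and 0.12 (SE 0.15) on the probes of the former and 0.24 (SE 0.19) on the latter. The first detected intervals after it gave 0.78 on the first, and 0.22 on the probe of the second that was above background in both groups. Both intervals before the boundary lie within chr16:90038086-90127636, of 89551 bases, which was tested on 9 of 10 R probes and 2 of 7 F probes. Its R probes ranged from -0.11 to 0.73, with 5 above 0 and 4 below.

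The probe at the top of that range, A_30_P01032911, had the lowest p of the tested chromosome 16 interval probes. It stood at -4.53, -4.40, -4.80 and -4.51 in wild type and at -3.85, -3.64, -3.81 and -4.04 in Ts1Cje. The genotypes did not overlap, and the probe was above background on 3 wild-type and 4 Ts1Cje arrays. The difference was 0.73 (SE 0.11, limma adjusted p = 0.067), and with normexp background correction it was 0.13 (adjusted p = 0.73). The other 8 tested R probes of the same interval gave between -0.11 and 0.31.

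Next to it, chr16:90008636-90015586 was tested on all 5 of its R probes and on 2 of 5 F probes, and all 7 were above 0. The R probes gave 0.11 to 0.36. The F probe A_30_P01030522 stood at -4.36, -4.49, -4.64 and -4.47 in wild type and at -4.24, -4.13, -3.93 and -4.22 in Ts1Cje, with no overlap (0.36, SE 0.09, limma adjusted p = 0.31). Over the 26 tested probes that start at 89 Mb or later and before the boundary, the median was 0.12 and 19 were above 0.

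Farther from the boundary, a run of F intervals stood above the rest. It was singled out after its values were seen. It holds the 14 detected F intervals that start between 40 and 41 Mb, from position 40070103 to 40653314, with 40 of 41 F probes tested, 38 of them above 0 and a median of 0.24. None was called, the lowest adjusted p was 0.43, and 3 of 40 had an unadjusted p under 0.05, beside 8.32% of all features. Of the 12 R probes of intervals that start between 40 and 41 Mb, 1 was tested. The R interval chr16:39984031-40081556 starts before 40 Mb and overlaps the run. All 4 of its probes were tested and gave 0.06 to 0.12. The mean over the run, relative to the wild-type mean of each probe, was -0.09, 0.19, -0.26 and 0.16 on wild-type replicates 1 to 4 and -0.17, 0.36, 0.54 and 0.32 on Ts1Cje replicates 1 to 4. Ts1Cje replicate 1 lay below wild-type replicates 1, 2 and 4, so that the groups overlapped. Without the 40 tested probes of the run the proximal median was 0.03. As the run was picked for its high values, that choice fixed the direction of this change.

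Of that run, A_30_P01019736 in chr16:40070103-40073270 was one of 3 proximal probes above background on all 8 arrays with every Ts1Cje array above every wild-type array. It stood at -2.69, -2.75, -3.15 and -2.92 in wild type and at -2.59, -2.49, -2.37 and -2.61 in Ts1Cje (0.36, SE 0.11, limma adjusted p = 0.43). The others were A_30_P01030522, above, and A_30_P01032771 in chr16:64820905-64822069, an R probe that gave 0.44 (SE 0.13, adjusted p = 0.43). With A_30_P01032911 the proximal count without overlap was 4 of 235 higher, beside 2.45% of all features. It was 3 of 235 lower, beside 3.43%.

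The 3 that were lower without overlap were small or dim. A_30_P01023574 in chr16:64758224-64765700, R, stood at -3.81, -3.71, -4.06 and -4.18 in wild type and at -4.36, -4.26, -4.50 and -4.51 in Ts1Cje (-0.47, SE 0.12, limma adjusted p = 0.32). A_30_P01023356 in chr16:11024315-11055740, F, gave -0.16 (SE 0.09), and A_30_P01021521, an R probe of chr16:90038086-90127636, gave -0.08 (SE 0.05).

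Some proximal intervals carry enough tested probes to be read as a whole, with 5 or more on a strand. Those beside the boundary are given above. In chr16:4585697-4594022 R, chr16:23992037-24001037 F and chr16:44717531-44724206 R the mean differences were 0.12, 0.13 and 0.06, and the arrays of the groups overlapped. Of their tested probes, 5 of 5, 6 of 7 and 5 of 5 were above 0. The intervals set out next include the one with the largest mean difference, -0.335, and were not chosen by the number of probes alone. At chr16:43623581-43642715, of 19135 bases, all 10 F and all 10 R probes were tested, the fullest signal on both strands of the chromosome 16 intervals. The mean of the F probes was 1.97 ± 0.17 in wild type and 1.95 ± 0.13 in Ts1Cje (SD, n = 4 each). The mean of the R probes was -2.71 ± 0.34 and -2.63 ± 0.21. Neither strand differed beyond the spread of its arrays.

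By contrast, chr16:46384974-46391331, of 6358 bases, was tested on all 5 R probes and none of 5 F probes, and all 5 were below 0, from -0.43 to -0.23. Their mean was -2.40 ± 0.26 in wild type and -2.73 ± 0.20 in Ts1Cje (SD, n = 4 each), and the arrays of the groups overlapped. At chr16:34524589-34573439 all 5 R probes were above 0, from 0.11 to 0.34, with means of -0.81 ± 0.19 and -0.60 ± 0.39 and overlapping arrays. None of these probes passed, and adjusted p was 0.48 or more in the former and 0.71 or more in the latter.

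Probes of the same interval and strand often disagreed in sign. Of 59 proximal interval strands with 2 or more tested probes, 25 held both signs, with a median range of 0.16 and a largest of 0.84. Of the 4 such triplicated interval strands, 1 held both signs. With the mean over probes as the value of an interval and strand, 9 of the 10 triplicated means were above 0 with a median of 0.09, and 62 of the 94 proximal ones with a median of 0.05.

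**Figure D5:**
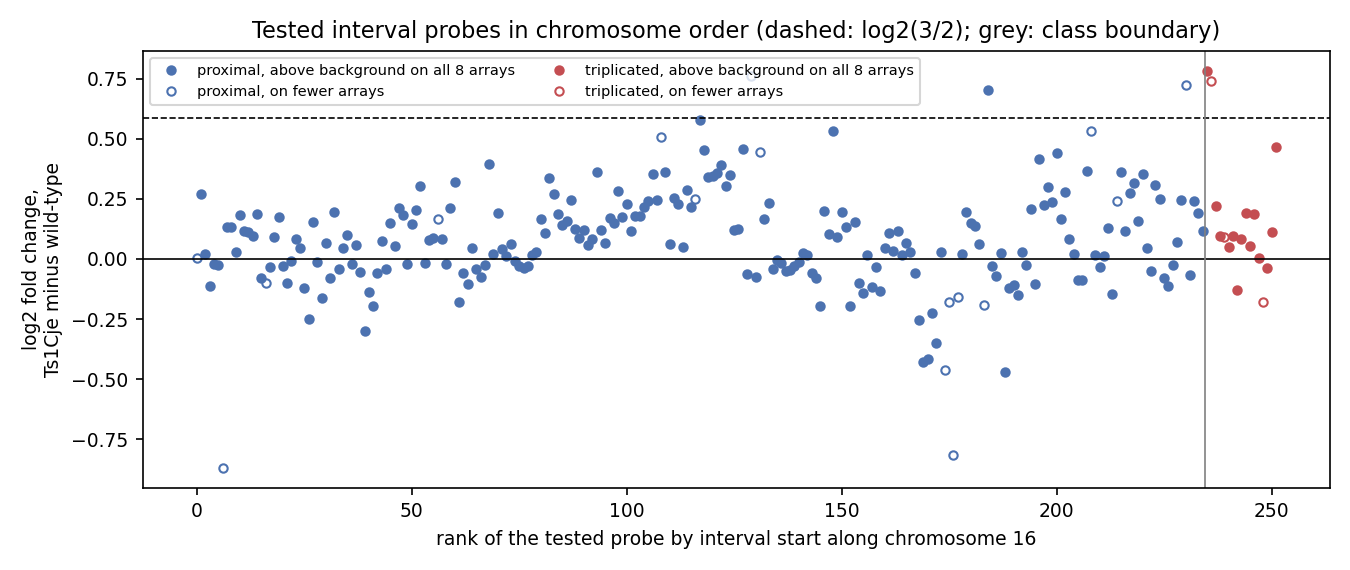
Log2 fold change (y axis) of the 252 tested chromosome 16 interval probes by rank of interval start (x axis), filled where a probe was above background on all 8 arrays. The 17 triplicated probes, right of the grey line, scatter from -0.18 to 0.78 around a median of 0.10, and the raised stretch near the middle is the run of 40 F probes with a median of 0.24.

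Long noncoding RNAs tested under a gene name give the other members of the class. Their list counts genes whether or not the array has a probe for them. Of 40 listed, among them the nuclear RNAs Malat1 and Neat1 and the imprinted Meg3, 23 were tested. None was called, none had an unadjusted p under 0.05, 14 were above 0 and the median was 0.05. Malat1 gave 0.28 (SE 0.16) and Meg3 0.19 (SE 0.13).

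Of the 70 RefSeq long noncoding RNA genes in the stretch that begins at Sod1, 3 were tested. The 70 are counted from the annotation, whether or not the array has a probe for them. A gene not tested may thus have no probe or no signal above background. This list was chosen by annotation after the arrays had been read. A630089N07Rik gave 0.32 (SE 0.16), 1810053B23Rik 0.06 (SE 0.09) and Gm10785 -0.007 (SE 0.08). The 95% intervals of the last 2 lay below the 3-copy ratio, at -0.14 to 0.26 and -0.18 to 0.17, and that of A630089N07Rik held both 0 and that ratio. Of 337 such genes on proximal chromosome 16, counted in the same way, 13 were tested. None was called (limma), and 2 had an unadjusted p under 0.05, beside 8.32% of all features. A930003A15Rik stood at 0.34 (SE 0.13, limma adjusted p = 0.56). Mir99ahg, the host gene of a microRNA cluster, stood at -0.20 (SE 0.07, limma adjusted p = 0.50), and the median of the 13 was 0.03.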

How the data were processed

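Cy3-labelled cRNA from 0.1 µg of total RNA was hybridised to 1 array per mouse, per the labels' protocols. Images were quantified with Feature Extraction 10.10.1.1 on probes designed on mm9, per the file headers. The authors deposited linear intensities: a processed signal, corrected for background within the array, the median brightness of spot and local background, and a flag (0 or 1) for signal well above background. Control and outlier-flagged spots were left out, and none was saturated. The log2 processed signal was averaged per probe and centred on the 75th percentile of each array.

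Probes above background on every array of 1 genotype or both were tested with limma 3.58.1 in R 4.3.3 (lmFit, eBayes, no block), with each interval probe as 1 feature and each RefSeq-named gene (27229 probes, GRCm38.p6 table, names and order only) as its brightest probe. Features with an adjusted p (Benjamini-Hochberg, 27702 features) under 0.05 were called, and 40 features were higher and 3 lower (17 and 4 with the array median as centre, which moved the median of all features to -0.053). The fit was run on simulated data with independent errors for each feature. Such data do not hold the shifts that probes of an array share, and no result here rests on them. Named intervals are all tested triplicated ones, 2 detected ones on each side of the boundary, and up to 3 proximal ones per direction without overlap. A_30_P01032911 and the intervals with many probes were added later. Members and lists were chosen with earlier results of these data known. Alternatives were normexp background correction (on median signals, offset 50), other normalizations, filters, variance priors, array weights, a replicate block and each array left out. No gene annotation or sequence of mm9 was used here, so the genes around an interval are not given. Replicates 1 to 4 of the groups share numbers. The correlation of deviations between arrays of the same number was 0.22, 0.19, 0.10 and 0.06. The highest with a Ts1Cje array of another number was -0.01, 0.04, 0.11 and 0.12. Thus 2 of the 4 wild-type arrays correlated best with their own number. As the pairs are not stated, the numbers were not taken as pairs, except in the replicate block. Values were tabulated with pandas 2.3.3 in Python 3.11.15 and drawn with matplotlib 3.10.9.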

Additional observations from a re-analysis of the deposited data

Results flagged for a closer look

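There were 68 sets of 4 arrays: 27 named probes, medians over classes and counts of detected probes, each in both genotypes. In 9 of them an array's gap to its nearest neighbour, divided by the range of the 4, exceeded Dixon's 95% critical value. Independent sets would give 3.4 by chance. These sets share arrays and probes, and some probes were named for groups without overlap, so 9 against 3.4 is not a test. Ts1Cje replicate 1 accounts for 5 of the 9. It stood at -3.36 against -4.52 to -4.33 for A_30_P01018147, at -4.24 against -2.92 to -2.74 for A_30_P01024527, at -2.52 against -3.93 to -3.82 for A_30_P01032845, at -3.11 against -2.93 to -2.90 for A_30_P01030988, and at -0.078 against 0.10 to 0.12 for the median over the proximal intervals. Ts1Cje replicate 3 stood at -0.56 against -0.42 to -0.39 for A_30_P01024965 and at -1.40 against -1.14 to -1.11 for A_30_P01023356. Wild-type replicate 1 stood at -0.85 against -1.10 to -1.09 for the last of these. Wild-type replicate 4 detected 254 proximal probes against 248 to 249 on the other wild-type arrays.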

How the results depend on the processing

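No chromosome 16 interval probe was called in any of 17 alternative fits, and the lowest adjusted p among the named ones was 0.054, for A_30_P01032911 with quantile normalization. At adjusted p under 0.10 there was 1 proximal call, and at an unadjusted p under 0.05 there were 4 triplicated and 16 proximal. With the replicate block the count was 0 in both classes, the medians of 0.10 and 0.07 were as before, and the count of triplicated reference genes called went from 22 to 0 (lowest adjusted p 0.086). Leaving out each array gave 0 calls throughout, medians of 0.05 to 0.16 for the triplicated and 0.01 to 0.10 for the proximal probes, and 0 to 15 called reference genes. Without Ts1Cje replicate 1, 59 proximal probes had an unadjusted p under 0.05, beside 11.3% of all features. With normexp both medians were 0.03. Over all features, 40 were called higher. This count was 17 with the array median as centre, 3 without the filter on dim probes, 63 with array weights, 1 with the replicate block, and from 1 (without Ts1Cje replicate 4) to 28 (without wild-type replicate 3) with an array left out. Detection changed with its rule: above background on at least 1 array it was 53.3% of triplicated and 59.2% of proximal probes, and on all 8 arrays 31.1% and 41.01%.

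Of the 27 named probes, from 18 intervals, 7 changed sign somewhere, all triplicated and none called. With array weights A_30_P01018147 gave -0.026, A_30_P01020965 -0.033 and A_30_P01032845 -0.028. With the array median as centre A_30_P01030403 gave -0.003 and A_30_P01033337 -0.049, the latter -0.005 with quantile normalization. Leaving out each array in turn, the value ran from -0.165 to 0.224 for A_30_P01018147, from -0.064 to 0.107 for A_30_P01020965, from -0.078 to 0.221 for A_30_P01023895, from -0.025 to 0.17 for A_30_P01024414, from -0.152 to 0.32 for A_30_P01032845 and from -0.043 to 0.036 for A_30_P01033337. The cause was not tested.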
